A study of Homo sapiens with 24 samples.

Results

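The RNA of the insoluble cytoplasmic fraction of U2OS cells was compared between cells given the DDX3 inhibitor RK-33 before sodium arsenite (NaAsO2) and cells given NaAsO2 alone. The comparison was defined by the sample labels and held 6 of the 24 libraries of the series, 3 labelled RK_Ars insoluble and 3 labelled Ars insoluble. It addressed which RNAs differ in the RNP granule-enriched pellet of arsenite-stressed cells when DDX3 activity is blocked. U2OS is an established human osteosarcoma line, and all groups shared this 1 line. Ars cells received 500 µM NaAsO2 for 60 min, and RK_Ars cells received 6 µM RK-33 for 1 h and then the same NaAsO2 treatment. Control cells (Ctrl) received 0.12% DMSO for 2 h, RK cells received RK-33 without NaAsO2, and both are used below only as reference levels. Whether the Ars cells also received the DMSO vehicle is not given in the sources used here. Per the study's methods, nuclei were spun out of each lysate first and the pellet of a faster spin was kept as the insoluble fraction, so that it can hold stress granules (SGs), P-bodies and other heavy particles. The sequencing experiment was repeated 3 times in 1 cell line. The p-values rest on a spread between repeats that was estimated over all 24 libraries in 8 groups. Both fractions of a lysate entered as separate libraries, and the compared insoluble repeats did not set this spread alone.

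DDX3 is a DEAD-box RNA helicase that unwinds structured mRNA leaders during translation initiation and is a component of SGs, and RK-33 occupies its ATP-binding site. Arsenite reacts with protein thiols, triggers phosphorylation of the initiation factor eIF2α and thereby stalls translation, after which untranslated mRNPs condense into SGs. Misfolded protein also releases the transcription factor HSF1, which binds heat shock elements in promoters and induces chaperone genes, while phosphorylated eIF2α favours translation of ATF4 and its targets in the integrated stress response.

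Total assigned fragments, exonic plus intronic, ranged from 13345445 to 18005839 in the Ars libraries and from 18437264 to 19799530 in the RK_Ars libraries. Levels are given as CPM, the counts scaled to library size with TMM factors, and tests were made with edgeR's quasi-likelihood method over 17666 genes. The Ars library of replicate 3 stood apart, with a Pearson correlation of log2 CPM of 0.931 to replicate 1, against 0.98 to 0.995 among the RK_Ars libraries. In it the 7SL RNA RN7SL1 stood at 70837 CPM, against 4127 and 8025 CPM in the other Ars libraries and 7225, 5164 and 13025 CPM in RK_Ars, and GC-rich genes were raised, with a mean GC content of the counted genes of 53.4%, against 48.5 to 50.3% in the other 5 libraries. Exon calls of named genes that rest on this library are given with and without it below. Of 9 U2OS markers, 8 stood above 7.85 CPM in all 6 libraries (scaled to library size alone). VIM, the mesenchymal filament vimentin, was at 211 to 542 CPM. COL1A2, a type I collagen chain, was near 0 at 0.0734 to 1.84 CPM. Summed markers of leukocytes stood at 1.26 to 1.69 CPM in Ars and 2.08 to 2.56 CPM in RK_Ars, and those of epithelial cells at 7.96 to 9.62 and 6.82 to 8.13 CPM. Neuronal markers summed to 9.40 to 14.8 CPM in Ars and 13.3 to 18.4 CPM in RK_Ars. Endothelial markers summed to 15.6 to 29.7 and 15.2 to 23.9 CPM. Among these, VWF stood at 12.4 to 27.6 CPM, above the U2OS marker ALPL at 7.85 to 9.22 CPM. RK-33 acts on the DDX3 protein, so the DDX3X mRNA does not check the treatment. Some levels set libraries labelled with NaAsO2 apart. The RNA NORAD, described below, had means of 630 CPM in Ars and 514 CPM in RK_Ars, against 219 CPM in Ctrl and 260 CPM in RK. No measured value shows independently of the labels which treatment a library received. The direction of every difference, that of the heat shock genes and ATF3 included, therefore rests on the labels as given and holds for the libraries so labelled. In bulk samples fewer cells of a type and less RNA per cell cannot be told apart, and all levels are shares of a library, not amounts of RNA.

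In total, 694 genes (3.93%) were called, of which 550 were higher in RK_Ars than in Ars (3.11% of those tested) and 144 lower (0.815%), at an adjusted p under 0.05 and a change of at least 2-fold. The median log2 fold change of all genes was 0.01. Leaving out 1 library at a time gave 294 to 840 higher genes, the fewest without RK_Ars replicate 2 and the most without Ars replicate 1, and 35 to 849 lower genes, the fewest without RK_Ars replicate 1 and the most without Ars replicate 1. Without RK_Ars replicate 1, 328 genes were higher. A fit of the 6 libraries alone, in which the spread comes from these libraries only, called 19 genes, all higher. The heat shock response held more of the called genes than any other list described, and its members include the chaperones that refold or hold damaged proteins. Of its 47 tested members, 16 were higher and 0 were lower, with a median log2 fold change of 0.61, and 24 were higher with no limit on fold, where 6.88% of all genes were. Without replicate 3 of both groups 15 members were higher, HSP90AA1 being the one of the 16 that fell short.

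All 4 genes that the list groups as inducible HSP70, HSPA6, HSPA1A, HSPA1B and HSPA1L, were higher, with a median log2 fold change of 2.85. The place of HSPA1L in this group is that of the list. HSPA6, a strictly inducible HSP70 on chromosome 1, was at 5.34, 4.77 and 11.1 CPM in Ars and 138, 99.5 and 186 CPM in RK_Ars, listed here and below for replicates 1, 2 and 3. The lowest RK_Ars value lay far above the highest Ars value, and the log2 fold change was 4.37 (SE of 0.28, adjusted p = 6.84e-10). HSPA1A and HSPA1B, adjacent copies on chromosome 6 that encode the same stress-inducible HSP70, were at 71.2, 71.3 and 134 CPM in Ars and 620.2, 559 and 910.4 CPM in RK_Ars, and at 70.4, 68.3 and 150.02 CPM in Ars and 587, 526 and 848 CPM in RK_Ars, respectively. The groups did not overlap for either gene, as held for 11% of all genes in this direction, with log2 fold changes of 2.92 (SE of 0.21, adjusted p = 6.21e-09) and 2.77 (SE of 0.23, adjusted p = 6.27e-08). As the copies are nearly identical, how unique reads were split between them is uncertain. HSPA1L, another gene of this cluster, rose by a log2 value of 1.29 (SE of 0.18, adjusted p = 0.000105) at a far lower level, 3.84, 2.25 and 2.13 CPM in Ars and 7.201, 6.38 and 6.95 CPM in RK_Ars.

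RK-33 without NaAsO2 was also accompanied by high levels of these genes. HSPA6 was at 1.54 ± 0.404 CPM in Ctrl and 19.2 ± 2.2 CPM in RK (SD, n = 3 each), a log2 difference of 3.62 (adjusted p = 1.58e-07). The median over the 4 genes grouped as inducible HSP70, HSPA1L included, was 2.82. For HSPA1A the means were 40.3 ± 1.43 CPM in Ctrl, 287 ± 16.4 CPM in RK, 92.3 ± 36.4 CPM in Ars and 696 ± 188 CPM in RK_Ars.

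HSP40 proteins carry the J domain that stimulates the ATPase of HSP70, and 4 of their 9 tested genes were higher. DNAJA4 showed the second largest change of the list, 22.98, 17.7 and 14.2 CPM in Ars and 249.9, 217 and 210.3 CPM in RK_Ars, a log2 fold change of 3.61 (SE of 0.16, adjusted p = 1.68e-12). It shares sequence with WDR61 on the opposite strand, and since counting ignored strand, part of either gene's reads can belong to the other. DNAJB1, the main cytosolic J-domain partner of inducible HSP70, was at 148, 156 and 192 CPM in Ars and 536, 535 and 723 CPM in RK_Ars, with a log2 fold change of 1.86 (SE of 0.15, adjusted p = 2.94e-08). DNAJB6, a suppressor of protein aggregation, reached 62.1, 59.04 and 56.1 CPM in Ars and 143, 137 and 136 CPM in RK_Ars, and DNAJB4 18.6, 18.5 and 5.46 CPM in Ars and 38.3, 42.5 and 26.7 CPM in RK_Ars. Their log2 fold changes were 1.23 (adjusted p = 4.13e-08) and 1.31 (adjusted p = 0.002). Of DNAJB4, the Ars library of replicate 3 was the lowest, and without it the log2 fold change was 0.90, short of the fold limit. The ubiquitous DNAJA1 was past the p threshold alone, with 0.79 (adjusted p = 2.76e-05), and DNAJB2 did not pass, with -0.44 (adjusted p = 0.129).

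Other chaperone classes moved in part. HSPH1, the HSP110 nucleotide exchange factor of HSP70, was at 147, 138 and 127 CPM in Ars and 433, 438 and 403 CPM in RK_Ars, a log2 fold change of 1.63 (SE of 0.10, adjusted p = 2.31e-10), whereas its constitutive relatives HSPA4 and HSPA14 had log2 fold changes of 0.30 (adjusted p = 0.0688) and 0.02 (adjusted p = 0.941) and HSPA8 one of 0.83 (adjusted p = 0.000917). Among 10 genes of HSP90 and its partners, 2 were higher. CHORDC1, a cochaperone of HSP90, was at 69.6, 51.7 and 34.04 CPM in Ars and 259, 264 and 183 CPM in RK_Ars. Its fitted log2 fold change was 2.18 (SE of 0.19, adjusted p = 1.29e-07), which is 4.52-fold. The stress-inducible HSP90AA1 was at 676, 666 and 394 CPM in Ars and 1157, 1159 and 1267 CPM in RK_Ars, with a log2 fold change of 1.04 (adjusted p = 8.78e-05), which was 0.78 without Ars replicate 3 and 0.73 without replicate 3 of both groups. Its constitutive paralog HSP90AB1 did not pass, with 0.36 (adjusted p = 0.055), nor did the regulator HSF1 itself, with -0.46 (adjusted p = 0.11).

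BAG3, which links HSP70 to selective autophagy, was the 1 of 4 exchange-factor genes that was higher, at 59.8, 48.02 and 49.5 CPM in Ars and 127, 108 and 122 CPM in RK_Ars, with a log2 fold change of 1.18 (SE of 0.11, adjusted p = 2.3e-07). HSPE1, the mitochondrial HSP10, was at 8.11, 9.69 and 8.78 CPM in Ars and 27.005, 25.4 and 21.5 CPM in RK_Ars, a log2 fold change of 1.47 (adjusted p = 2.84e-07), while HSPD1, the HSP60 that shares its bidirectional promoter, was at 359, 373 and 344 CPM in Ars and 502, 489.95 and 639 CPM in RK_Ars, with 0.60 (adjusted p = 0.00176). Of the small heat shock proteins, CRYAB (αB-crystallin) had a log2 fold change of 1.06 (adjusted p = 0.000365) and HSPB1 one of 0.11 (adjusted p = 0.753). Among members listed as other HSF1 targets, a label not tested here, the splicing-factor kinase CLK1 and the G-protein regulator RGS2 were higher. CLK1 was at 26.04, 22.6 and 24.8 CPM in Ars and 57.2, 64.7 and 47.8 CPM in RK_Ars. RGS2 was at 8.61, 6.88 and 3.79 CPM in Ars and 20.3, 19.7 and 17.1 CPM in RK_Ars. Their log2 fold changes were 1.21 (adjusted p = 2.89e-06) and 1.53 (adjusted p = 6.15e-05). In all 16 members that were higher, each RK_Ars library lay above each Ars library. In a fit of the 6 libraries alone, where the spread is estimated from 4 residual degrees of freedom, 5 of the 16 stayed past both thresholds, namely HSPA6, HSPA1A, DNAJA4, DNAJB1 and HSPH1.

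**Figure D1:**
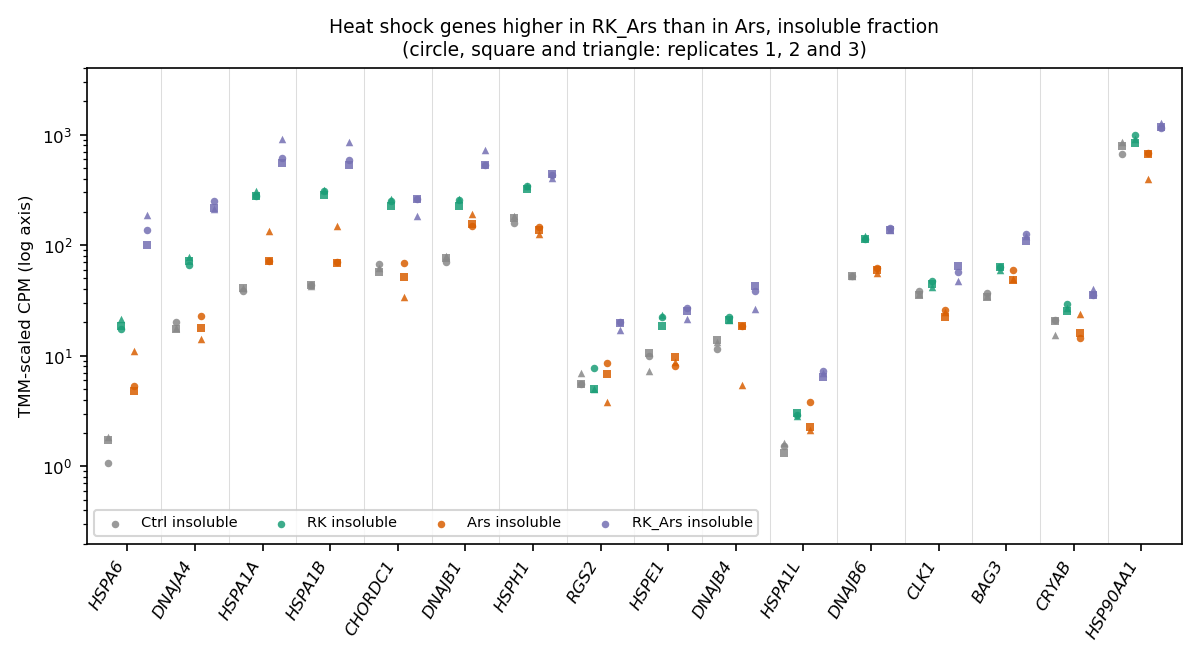
TMM-scaled CPM (log axis) of the 16 heat shock genes that were higher in RK_Ars, in each insoluble library of Ctrl, RK, Ars and RK_Ars, with circles, squares and triangles for replicates 1, 2 and 3. The 3 RK_Ars points lie above the 3 Ars points for every gene, and for HSPA6 the RK_Ars points reach 99.5 to 186 CPM.

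Heat shock elements are repeats of the unit nGAAn in alternating orientation, and they are shown for some of the higher members that carry one. The log2 fold changes of the members shown ran from 1.04 for HSP90AA1 to 4.37 for HSPA6, so they were not those with the largest changes alone. RefSeq promoter windows (GRCh38.p14, 250 bases before to 50 after the start) were searched for 2 adjoining units, GAANNTTC or TTCNNGAA, and for 3 units, GAANNTTCNNGAA or TTCNNGAANNTTC, on both strands, so that a match of 3 units also holds a match of 2. Capitals mark the matched units, and 6 bases on either side are given except where units run on.
HSPA6 (chr1:161524460-161524484, plus strand): gaaaggTTCGCGAAAGTTCgcggcg
CHORDC1 (chr11:90223084-90223112, minus strand): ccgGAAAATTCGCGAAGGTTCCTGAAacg
DNAJB6 (chr7:157336867-157336891, plus strand): agccgaGAACCTTCGCGAAggtggg
HSP90AA1 (chr14:102087114-102087138, minus strand): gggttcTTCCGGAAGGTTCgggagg
HSPA1A (chr6:31815431-31815450, plus strand): accctgGAATATTCccgacc
HSPA1B (chr6:31827627-31827646, plus strand): cccctgGAATATTCccgacc
DNAJA4 (chr15:78264465-78264484, plus strand): ctccgcGAAGGTTCtaggcc
DNAJB1 (chr19:14518461-14518480, minus strand): ggggcgGAAGGTTCtggagg
The first capital of these sites lies 74, 60, 131, 88, 106, 105, 91 and 77 bases before the annotated start of the gene, in the order shown. CHORDC1, HSP90AA1, DNAJA4 and DNAJB1 hold a further 2-unit match nearer the start, and HSPA1L, transcribed away from HSPA1A, shares the HSPA1A site on the other strand. A window was given for 15 of the 16 members that were higher, and 10 of these held 2 units (66.7%) and 4 held 3 units (26.7%). Of the 27 tested members that were not called and had a window, 10 held 2 units (37.0%) and 5 held 3 units (18.5%). Over the 11789 tested genes with a window the shares were 13.9% and 0.5%, over the 231 genes that were higher 23.8% and 3.46%, and over the 87 that were lower 8.05% and 1.15%. HSPA8, HSP90AB1, HSPD1 and SERPINH1 are among the members with 3 units whose exon change stayed below 2-fold, and the match is a description of the promoter.

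Intronic fragments of the same libraries were counted in a separate table. Intron CPM are scaled to the intronic fragments of a library, with TMM factors of their own, and are not comparable in level with exon CPM. The paper gives unspliced mRNA, lariats and other RNA derived from introns as their possible sources. Since counting ignored strand, RNA of the opposite strand can also enter, and these sources were not told apart. Of the 17406 genes tested there, 1789 were called (10.3%), of which 1103 were higher (6.34%) and 686 were lower (3.94%), which became 896 and 980 when libraries were scaled by size alone. Lower introns numbered 340 without Ars replicate 3, 461 and 438 without RK_Ars replicates 1 and 2, 1230 without Ars replicate 1 and 1168 without RK_Ars replicate 3. In the heat shock list 18 of the 38 genes with testable introns were higher and 1 was lower, with a median log2 fold change of 0.91. Introns of BAG3 were at 109, 86.9 and 142 CPM in Ars and 688, 668 and 918 CPM in RK_Ars, a log2 fold change of 2.75 (SE of 0.17, adjusted p = 1.52e-12), well above its exon value. Introns of HSPH1 were at 122, 110.02 and 82.5 CPM in Ars and 849, 862 and 601 CPM in RK_Ars, with 2.87 (SE of 0.16, adjusted p = 1.93e-13), and those of DNAJA4 reached a log2 fold change of 4.07 (SE of 0.16, adjusted p = 9.19e-17).

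Several chaperone genes whose exons did not pass both thresholds had higher introns. SERPINH1, the collagen chaperone HSP47, had an exon log2 fold change of 0.67 (adjusted p = 0.0129) and an intron log2 fold change of 2.57 (adjusted p = 6.94e-10), with introns at 22.8, 25.3 and 45.9 CPM in Ars and 156, 158 and 237 CPM in RK_Ars. HSP90AB1 had intron values of 210.1, 179 and 212 CPM in Ars and 740.3, 689 and 713 CPM in RK_Ars, a log2 fold change of 1.83 (adjusted p = 4.48e-11). For STIP1, which joins HSP70 to HSP90, the intron log2 fold change was 1.42 (adjusted p = 1.67e-05) and the exon value 0.28 (adjusted p = 0.0731). These 3 genes were chosen for description after their values were seen.

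Introns were also expressed as a share of all fragments of a gene. The intronic share of BAG3 was 36.4 ± 10.9% in Ars and 67.3 ± 1.698% in RK_Ars (SD, n = 3 each), that of HSPH1 was 16.8 ± 3.05% in Ars and 37.1 ± 7.24% in RK_Ars, and that of DNAJB6 was 49.6 ± 11.6% in Ars and 68.2 ± 1.62% in RK_Ars. In these 3 genes the groups did not overlap. Of the 36 heat shock members with intronic fragments and at least 20 fragments in each library, the share was higher in every RK_Ars library than in every Ars library for 15, lower for 1 and overlapping for 20, where 16.5% of all such genes were higher and 2.6% lower. The 1 lower was CRYAB, at 7.22 ± 0.588% in Ars and 3.19 ± 0.98% in RK_Ars, and HSP90AA1 overlapped at 3.75 ± 3.04% and 3.64 ± 0.573%. For ATF3 the share was 45.04 ± 9.05% in Ars and 49.9 ± 0.59% in RK_Ars, and the groups overlapped. Over all genes the intronic share of the libraries was 21.4 ± 3.73% in Ars and 27.5 ± 4.47% in RK_Ars, with overlapping groups, since Ars replicate 1 stood at 24.3% and RK_Ars replicate 3 at 22.3%. Intron CPM and their log2 fold changes are scaled to the intronic fragments of each library, which takes this difference in totals out. Its part in the intronic shares of single genes was not tested.

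**Figure D2:**
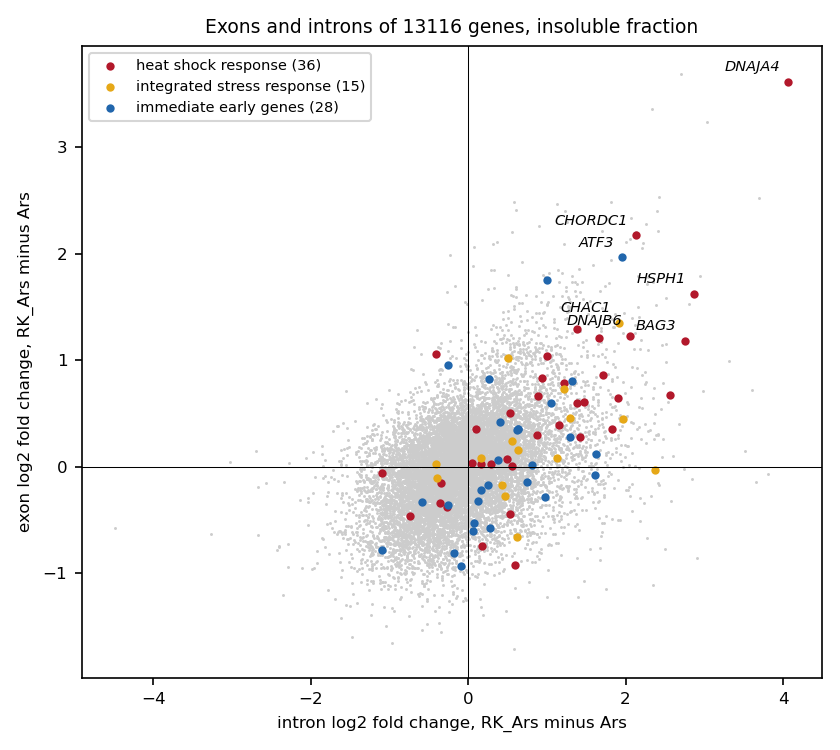
Exon log2 fold change (vertical) against intron log2 fold change (horizontal) of RK_Ars over Ars for the 13116 genes tested in both tables, with members of the heat shock (36), integrated stress response (15) and immediate early (28) lists coloured. Most heat shock members lie right of 0, with DNAJA4 farthest out at 4.07 for introns and 3.61 for exons.

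Of the 550 genes with higher exon counts, 271 could be tested in introns, and 137 of these were higher there too (50.6%), none being lower. Of the 83 testable genes with lower exon counts, 16 were lower in introns and 1 was higher. The tables share libraries, so these counts are not independent. By the rule used for naming, the introns with the smallest adjusted p also included TENT5C, a poly(A) polymerase gene, at 37.04, 31.7 and 34.4 CPM in Ars and 179.8, 192 and 219 CPM in RK_Ars, and the histone gene H2BC11, at 25.9, 26.3 and 29.98 CPM in Ars and 128, 130.04 and 169 CPM in RK_Ars, with log2 fold changes of 2.51 (SE of 0.16, adjusted p = 1.68e-12) and 2.38 (SE of 0.15, adjusted p = 1.68e-12). Lower introns were those of SEC23A, a COPII coat subunit, at 41.9, 44.9 and 48.5 CPM in Ars and 14.2, 14.9 and 16.8 CPM in RK_Ars, with -1.56 (SE of 0.16, adjusted p = 3.25e-08), and of WDR43, LEF1, CBL and RAB7B, with log2 fold changes of -1.44, -1.29, -1.28 and -1.58. The exon log2 fold change of SEC23A was 0.01 (adjusted p = 0.979).

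Immediate early genes encode short-lived transcription factors and feedback proteins whose mRNAs are induced within minutes of a stimulus. Of the 36 tested members 3 were higher (8.33%) and 0 lower, where 3.11% and 0.815% of all genes were. The median log2 fold change was -0.16, and all 3 higher genes encode AP-1 subunits. ATF3, which is also an ATF4 target, was at 63.6, 53.2 and 54.6 CPM in Ars and 232, 216 and 222 CPM in RK_Ars, a log2 fold change of 1.97 (SE of 0.10, adjusted p = 3.2e-11), compared with 15.6 ± 0.541 CPM in Ctrl and 65.6 ± 2.58 CPM in RK. FOS was at 142, 150.4 and 177 CPM in Ars and 501, 505 and 578 CPM in RK_Ars, with a log2 fold change of 1.76 (SE of 0.14, adjusted p = 1.57e-08), and FOSB at 14.5, 16.8 and 23.4 CPM in Ars and 52.3, 53.5 and 64.2 CPM in RK_Ars, with 1.65 (SE of 0.21, adjusted p = 2.25e-05). None of these groups overlapped. FOSB and ERCC1 overlap on opposite strands, and ERCC1 had a log2 fold change of -0.43.

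Their partners in AP-1 did not follow, with log2 fold changes of 0.28 (adjusted p = 0.396) for JUN, -0.65 (adjusted p = 0.0491) for JUNB and -0.22 (adjusted p = 0.214) for FOSL1. JUNB was at 155, 159.6 and 346 CPM in Ars and 127, 132 and 161 CPM in RK_Ars. The growth-response factor EGR1 was at 506, 420.4 and 287 CPM in Ars and 476, 522 and 552 CPM in RK_Ars, a log2 fold change of 0.35 (adjusted p = 0.12), and the 9 EGR, nuclear receptor and related factors showed a median of -0.53. For the immediate early list as a whole, the soluble fraction of the same lysates gave a median log2 fold change of 0.48 with 10 members higher, where 2.41% of all genes were.

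The change with RK-33 differed between the fractions, tested as an interaction, for 25 genes in all (0.142%), of which 6 had the more positive change in the insoluble fraction (0.0340%) and 19 the more negative (0.108%). Of these, 5 are immediate early genes, EGR1, BTG2, ZFP36, ZFP36L1 and ZFP36L2, of the 36 tested, a group picked out after its values were seen. ZFP36, ZFP36L1 and ZFP36L2 are the family of proteins that bind AU-rich elements and recruit the deadenylation machinery to short-lived mRNAs. ZFP36 was at 32.9, 28.3 and 30.6 CPM in Ars and 45.98, 51.1 and 41.9 CPM in RK_Ars in the insoluble fraction, a log2 fold change of 0.60 (adjusted p = 0.00625), against 1.995 (adjusted p = 1.6e-09) in the soluble fraction, and the difference was -1.4 (SE of 0.19, adjusted p = 0.0012). ZFP36L1 was at 739, 663 and 765 CPM in Ars and 375, 424 and 338 CPM in RK_Ars, and so fell by 0.93 on the log2 scale (adjusted p = 3.83e-06), while its soluble value was 0.09 (adjusted p = 0.623). ZFP36L2 had log2 fold changes of -0.78 (adjusted p = 0.000964) and 0.47 (adjusted p = 0.0493), and BTG2, an antiproliferative factor, 0.12 (adjusted p = 0.569) and 1.34 (adjusted p = 9.69e-07). With the lysate as a block, which pairs the fractions, 6 genes in all passed this test, among them EGR1, ZFP36 and ZFP36L1, while BTG2 and ZFP36L2 lost the call at an adjusted p of 0.0501 each (edgeR). A fit of the 4 compared groups alone called none of the 5, at adjusted p of 0.0556 to 0.127 (edgeR), and ZFP36L1 also lost the call with the GC trend of each library removed (-0.79, adjusted p = 0.0594) and, on fold alone, without Ars soluble replicate 2 (-0.99). Leaving out 1 library gave 9 to 419 genes, with 9 without RK_Ars insoluble replicate 1, 210 without RK_Ars insoluble replicate 3 and 419 without Ars insoluble replicate 1.

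**Figure D3:**
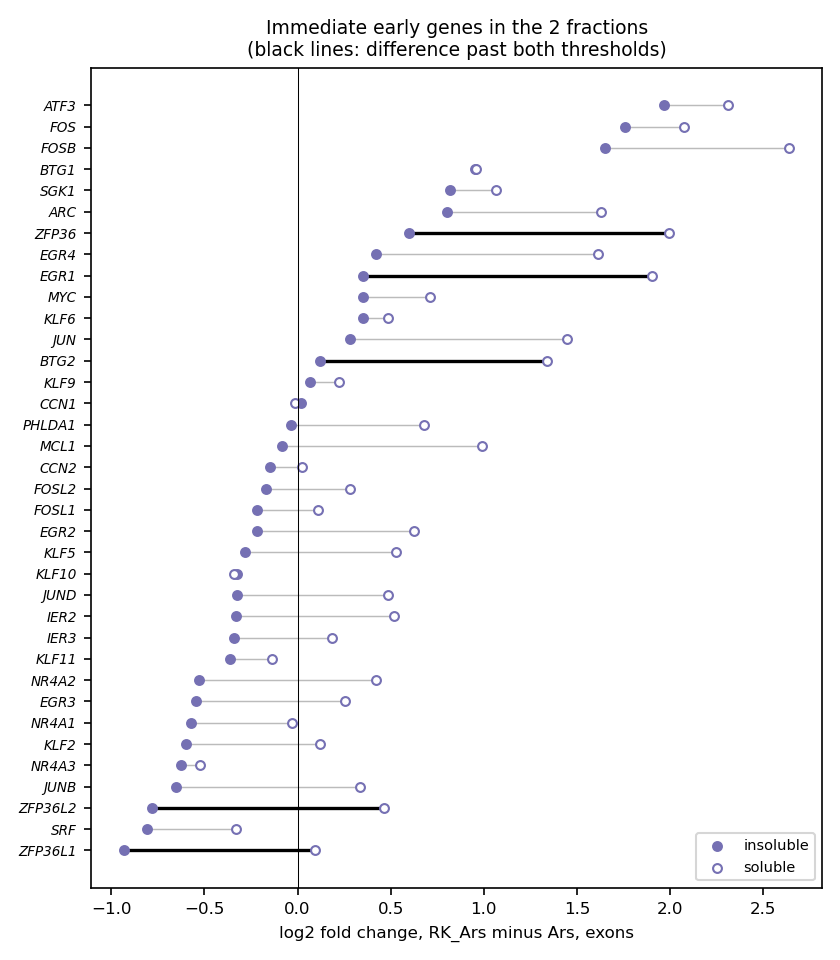
Log2 fold change of RK_Ars over Ars for the 36 tested immediate early genes, with 1 point for the insoluble and 1 for the soluble fraction, joined by a line that is black for the 5 genes whose difference between fractions passed both thresholds. For EGR1, BTG2, ZFP36, ZFP36L1 and ZFP36L2 the soluble point lies right of the insoluble point.

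Among the phosphatases of MAP kinases, DUSP10 was higher, with 1.11 (adjusted p = 0.00104), and DUSP8 and DUSP9 were lower, with -1.12 (adjusted p = 0.00538) and -1.26 (adjusted p = 0.0437). DUSP9 was at 6.76, 7.51 and 34.98 CPM in Ars and 4.95, 5.69 and 9.23 CPM in RK_Ars, where the high Ars value is that of replicate 3 alone, and without that library its log2 fold change was -0.15. DUSP10 and DUSP8 had 0.80 and -0.59 without it, both short of the fold limit.

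In the integrated stress response, 4 of 21 tested genes were higher and 0 lower, with a median log2 fold change of 0.08. DDIT3, which encodes the proapoptotic factor CHOP, was at 11.7, 8.07 and 11.1 CPM in Ars and 40.7, 39.5 and 41.4 CPM in RK_Ars, a log2 fold change of 1.98 (SE of 0.17, adjusted p = 1.21e-07). CHAC1, a glutathione-degrading enzyme, was at 13.8, 12.5 and 21.7 CPM in Ars and 40.5, 38.7 and 42.2 CPM in RK_Ars, and ASNS, asparagine synthetase, at 2.42, 2.32 and 1.54 CPM in Ars and 9.08, 8.61 and 5.16 CPM in RK_Ars, with log2 fold changes of 1.35 (SE of 0.16, adjusted p = 7.06e-06) and 1.82 (SE of 0.27, adjusted p = 0.000154). For all 3 the groups did not overlap. STC2, a secreted glycoprotein, passed narrowly, with 1.02 (adjusted p = 0.0401), and lost the call without replicate 3 of both groups and without Ars replicate 3. ATF4 itself had a log2 fold change of 0.03 (adjusted p = 0.932), and its targets TRIB3 and SLC7A5 had -0.66 (adjusted p = 0.0755) and -0.27 (adjusted p = 0.104). In introns 6 of 15 testable members were higher, against 6.34% of all genes, with SHMT2, a mitochondrial enzyme of serine metabolism, at 0, 0.356 and 1.48 CPM in Ars and 3.3998, 3.61 and 1.53 CPM in RK_Ars and a log2 fold change of 2.37 (adjusted p = 0.0366) while its exons had -0.03 (adjusted p = 0.911).

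ATF4 acts through C/EBP-ATF elements, which are shown for the members that were higher and carried one. The windows were searched for TGATGNAA and its complement TTNCATCA, and capitals mark the match.
ASNS (chr7:97872463-97872482, minus strand): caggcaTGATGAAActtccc
CHAC1 (chr15:40953256-40953275, plus strand): ctgccgTTGCATCActcctg
The sites lie 68 and 209 bases before the start. Of the 18 tested members with a window 5 held the element (27.8%), against 3.12% of all tested genes with a window, 8.66% of the 231 that were higher and 1.15% of the 87 that were lower.

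Other stress lists held few calls. HERPUD1, a factor of endoplasmic reticulum-associated degradation, was the 1 of 18 unfolded protein response genes that was higher, at 101, 95.97 and 58.5 CPM in Ars and 209, 219.9 and 166 CPM in RK_Ars, with a log2 fold change of 1.22 (adjusted p = 1.31e-05), which was 0.96 without Ars replicate 3, short of the fold limit. The introns of this list were higher in 7 of 16 testable genes, against 6.34% of all genes, with a median of 0.87. Those of HSP90B1, the chaperone GRP94, were at 4.84, 3.92 and 4.44 CPM in Ars and 17.8, 19.1 and 9.68 CPM in RK_Ars, a log2 fold change of 1.81 (adjusted p = 7.4e-05). Of 14 NF-kB feedback and cytokine genes, NFKBIZ, an inducible IκB protein, was higher, with 1.65 (adjusted p = 5.99e-06). None of 21 NRF2 and BACH1 targets, 6 metallothionein and zinc genes or 14 p53 targets passed both thresholds. HMOX1, the heme oxygenase that arsenite classically induces, was at 40.1, 39.5 and 39.02 CPM in Ars and 80.7, 67.7 and 59.8 CPM in RK_Ars, a log2 fold change of 0.81 (adjusted p = 0.000541), and the metallothionein MT2A had 0.70 (adjusted p = 0.00308). The antioxidant targets NQO1 and TXNRD1 had 0.14 (adjusted p = 0.424) and 0.11 (adjusted p = 0.432).

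**Figure D4:**
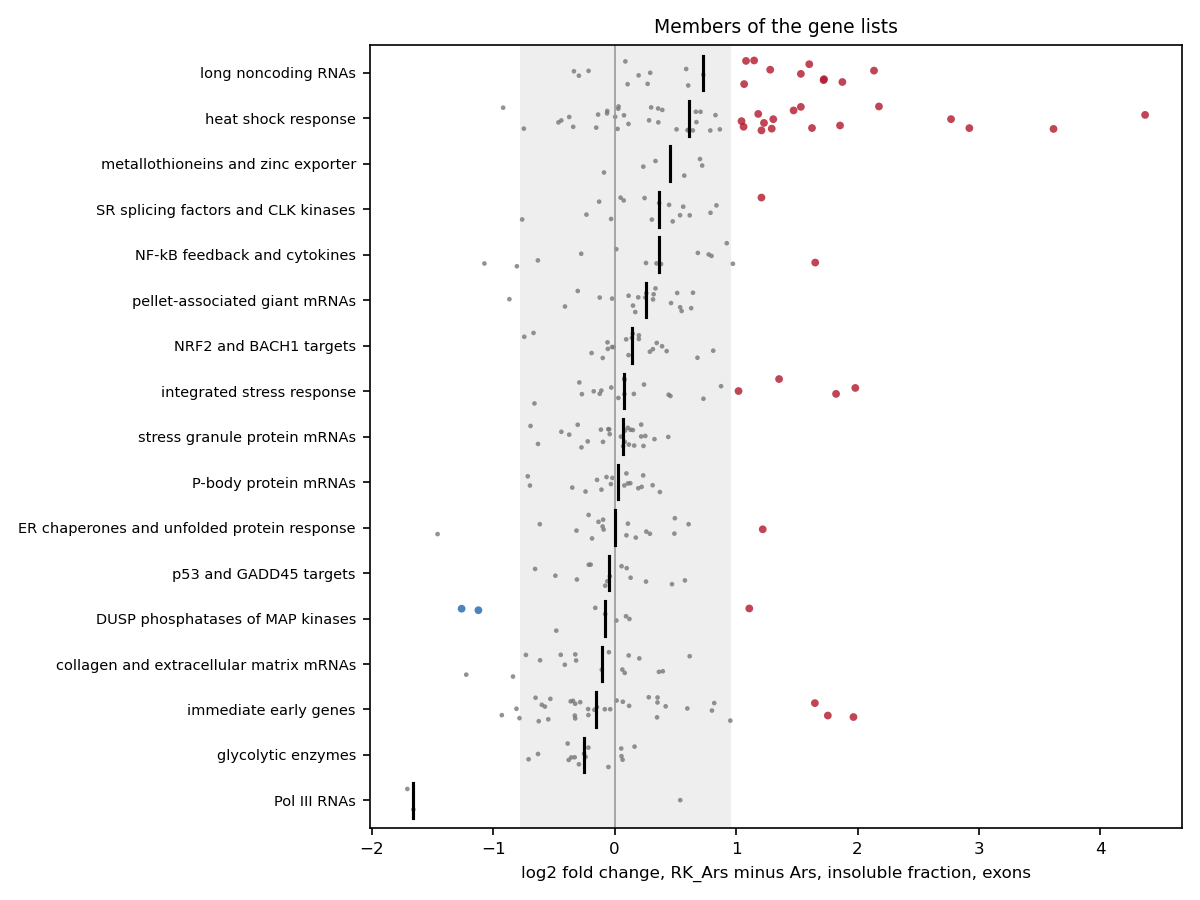
Log2 fold change of RK_Ars over Ars (exons, insoluble fraction) for each tested member of 17 gene lists, red where higher, blue where lower and grey where not past both thresholds, with a black bar at the median of the list and a grey band from the 5th to the 95th percentile of all genes (-0.77 to 0.95). The heat shock and long noncoding RNA lists hold most of the red points, while the SG and P-body lists lie within or near the band.

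Long noncoding RNAs were the other list with many calls, 10 of 21 tested being higher (47.6%) and 0 lower, with a median log2 fold change of 0.73. Of all genes 3.11% were higher and 0.815% lower, and of genes whose longest transcript is an lncRNA 8.72% were higher. Without replicate 3 of both groups 8 of the list remained called. The snoRNA host transcripts, spliced RNAs whose introns carry small nucleolar RNAs, were prominent. SNHG5 was at 4.48, 2.04 and 5.22 CPM in Ars and 15.9, 21.5 and 13.01 CPM in RK_Ars, SNHG12 at 14.2, 9.69 and 18.3 CPM in Ars and 45.01, 42.1 and 50.5 CPM in RK_Ars and ZFAS1 at 16.4, 11.02 and 8.301 CPM in Ars and 41.6, 44.3 and 33.5 CPM in RK_Ars, with log2 fold changes of 2.14 (adjusted p = 5.33e-05), 1.72 (adjusted p = 6.36e-07) and 1.72 (adjusted p = 5.99e-06). None of these groups overlapped. SNHG1 and GAS5 had log2 fold changes of 1.28 (adjusted p = 0.00108) and 1.08 (adjusted p = 1.17e-05), that of SNHG1 being 0.93 without Ars replicate 3. In contrast, SNHG8, SNHG15 and SNHG16 did not pass, with 0.27 (adjusted p = 0.648), 0.20 (adjusted p = 0.576) and 0.09 (adjusted p = 0.623). The host transcripts MIR17HG, MIR22HG and LINC-PINT had 1.6 (adjusted p = 0.000434), 1.07 (adjusted p = 0.000242) and 1.53 (adjusted p = 0.000256). In Ctrl the means were 74.2 CPM for GAS5, 82.7 for SNHG1, 13.9 for SNHG5 and 26.04 for SNHG12. In Ars they were 31.8, 33.4, 3.91 and 14.04 CPM, and in RK_Ars 67.1, 81.9, 16.8 and 45.9 CPM. For GAS5 and SNHG1 the RK_Ars and Ctrl libraries overlapped. SNHG1 was at 92.6, 99.3 and 53.9 CPM in RK_Ars and 87.9, 81.4 and 78.9 CPM in Ctrl. RK_Ars means lay above Ctrl for SNHG5, SNHG12, MIR17HG, MIR22HG and LINC-PINT, with overlapping libraries for SNHG5 and MIR17HG. Ars means lay below Ctrl for all of these and for GAS5 and SNHG1, with overlapping libraries for MIR22HG alone.

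Of 3 tested RNAs known to be retained in the nucleus 2 were higher. KCNQ1OT1, an imprinted antisense RNA, was at 44.7, 26.04 and 40.8 CPM in Ars and 150.03, 148 and 110.4 CPM in RK_Ars, a log2 fold change of 1.88 (SE of 0.24, adjusted p = 2.63e-05), and it lies within KCNQ1 on the opposite strand, which had -0.86. MALAT1, a nuclear speckle RNA, was at 2447, 1978 and 1315 CPM in Ars and 4021, 4540.3 and 4162 CPM in RK_Ars, with 1.15 (adjusted p = 0.000926), and its log2 fold change was 0.89 without Ars replicate 3 and 0.90 without replicate 3 of both groups. NEAT1, the scaffold of paraspeckles, had 0.61 (adjusted p = 0.0363). The part of residual nuclei in the pellet in these values was not tested. RK-33 without NaAsO2 had log2 differences from Ctrl of -0.31 (adjusted p = 0.516) for SNHG5 and -0.43 (adjusted p = 0.169) for MALAT1. MALAT1 had means of 5949 ± 831 CPM in Ctrl, 1913 ± 569 CPM in Ars and 4241 ± 269 CPM in RK_Ars (SD, n = 3 each). For KCNQ1OT1 these were 54.7 ± 2.83, 37.2 ± 9.83 and 136 ± 22.3 CPM. RK_Ars thus lay below Ctrl for MALAT1 and above it for KCNQ1OT1.

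NORAD, a cytoplasmic RNA that binds Pumilio proteins, was at 577, 589 and 724 CPM in Ars and 462, 542 and 537 CPM in RK_Ars. Each RK_Ars value lay below each Ars value, as held for 8.24% of all genes, but the log2 fold change of -0.29 (SE of 0.10, adjusted p = 0.0571) did not pass. In the soluble fraction it was 0.39 (adjusted p = 0.0266), and the difference between fractions, -0.68 (SE of 0.15, adjusted p = 0.037), was under the fold limit. The mRNAs of SG proteins and of P-body proteins held no gene past both thresholds among 27 and 18 tested, with medians of 0.07 and 0.03. G3BP1, the SG scaffold, was at 446, 443 and 331 CPM in Ars and 458, 475 and 505 CPM in RK_Ars, a log2 fold change of 0.24 (adjusted p = 0.13). DDX3X, which encodes the target of RK-33, was at 544, 539 and 223 CPM in Ars and 445, 473 and 343 CPM in RK_Ars, with -0.05 (SE of 0.20, adjusted p = 0.883), and the groups overlapped, with Ars replicate 3 the lowest of all. Without that library DDX3X had a log2 fold change of -0.42 (adjusted p = 0.016, edgeR), below Ars but short of 2-fold. Its introns were higher, at 18.4, 15.7 and 25.2 CPM in Ars and 42.9, 37.4 and 40.5 CPM in RK_Ars. Their log2 fold change was 1.03 (SE of 0.19, adjusted p = 0.000172, edgeR), and 1.21 in the soluble fraction. They made up 1.68 ± 1.58% of its fragments in Ars and 3.06 ± 0.261% in RK_Ars, and these shares overlapped.

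Genes outside these lists that had the smallest adjusted p among those that were higher were EIF4A2, NDRG1 and WDR61. EIF4A2, a paralog of the translation initiation helicase eIF4A1, was at 149, 134 and 108 CPM in Ars and 309.95, 341 and 336 CPM in RK_Ars, a log2 fold change of 1.34 (SE of 0.11, adjusted p = 3.68e-08). NDRG1, a hypoxia- and stress-responsive gene, was at 75.8, 69.7 and 79.6 CPM in Ars and 197, 202 and 196 CPM in RK_Ars, with 1.4 (SE of 0.10, adjusted p = 5.09e-09), and its soluble value was 0.49 (adjusted p = 0.00354). WDR61, a subunit of the PAF1 and Ski complexes, was at 15.7, 14.9 and 16.1 CPM in Ars and 49.9, 49.7 and 55.4 CPM in RK_Ars, with 1.73 (SE of 0.12, adjusted p = 3.83e-09), against 0.49 (adjusted p = 0.0136) in the soluble fraction, and the difference was 1.25 (SE of 0.17, adjusted p = 0.0012). Since WDR61 overlaps DNAJA4 on the other strand, its value cannot be told apart from that of DNAJA4 reads.

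Structural and housekeeping lists held few calls. Of 81 cytosolic ribosomal protein genes RPL3L alone was higher, at 0.6404, 0.772 and 1.07 CPM in Ars and 2.85, 2.46 and 2.41 CPM in RK_Ars, and the median was 0.08. The splicing lists held CLK1 alone among 17 genes, with a median of 0.37, although TRA2B and SRSF3, splicing regulators of the SR type, had log2 fold changes of 0.84 (adjusted p = 1.8e-05) and 0.79 (adjusted p = 0.00139). Of 41 replication-dependent histone genes 3 were higher, H2BC6, H4C4 and H4C14, at no more than 4.34 CPM in the 6 libraries, and H4C4 and H4C14 lost the call without replicate 3 of both groups, H4C14 also without Ars replicate 3 alone. Introns annotated to histone genes were higher in 7 of 10 testable cases, against 6.34% of all genes. None of 20 giant mRNAs, 17 collagen and matrix mRNAs or 15 glycolytic enzymes passed, with medians of 0.26, -0.11 and -0.25. COL1A1 was at 1166, 1439 and 7843 CPM in Ars and 1039.98, 963 and 2474 CPM in RK_Ars, where Ars replicate 3 again gave the high value. RN7SL1 itself had a log2 fold change of -1.71 (SE of 0.60, adjusted p = 0.0607), and this was 0.42 (adjusted p = 0.396, edgeR) without that library.

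The lower genes depended on Ars replicate 3 far more than the higher ones. Of the 144 lower genes, 142 had their highest value in that library, and their median GC content was 62.5%, against 47.7% over all genes and 45.2% for the higher genes. Without it 37 genes were lower, 14 of them among the 144 (9.72%), whereas 386 of the 550 higher genes kept their call (70.2%). Without replicate 3 of both groups 57 genes were lower and 740 higher, with 20 and 477 shared with the full comparison. The quintile of genes with the lowest GC content held 121 higher and 5 lower genes, and the quintile with the highest held 46 and 104. From the lowest to the highest GC quintile the median departure from the mean of the 6 libraries ran from -0.63 to 0.76 (log2) in Ars replicate 3 and from -0.13 to 0.09 in RK_Ars replicate 3, and in the opposite direction in the other 4 libraries. The part of GC content in the lower calls was not tested beyond removing its trend in each library. This gave 118 lower genes, of which 46 were among the 144 (31.9%), and 499 higher genes, of which 442 were among the 550 (80.4%), and 2 of the 16 named lower genes kept their call.

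**Figure D5:**
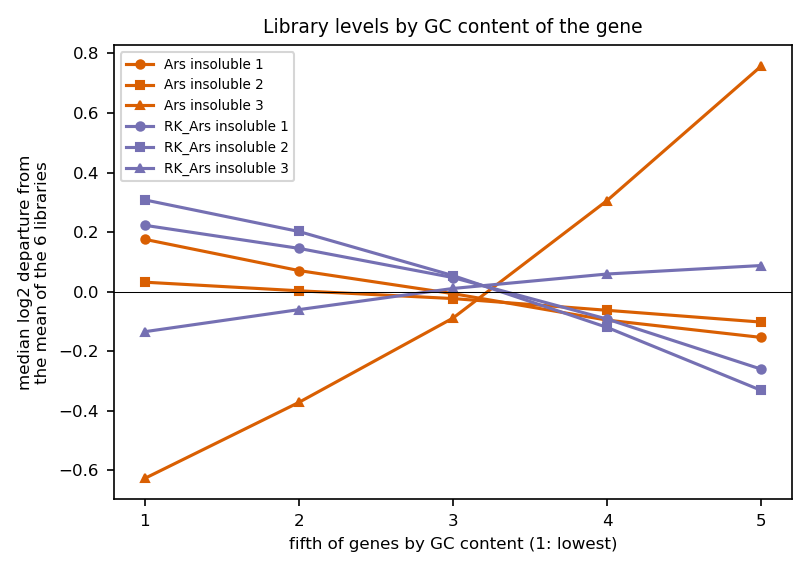
Median log2 departure of each of the 6 insoluble libraries from their common mean, in quintiles of genes by GC content from lowest (1) to highest (5). Ars replicate 3 rises from -0.63 to 0.76 across the quintiles, RK_Ars replicate 3 from -0.13 to 0.09, and the other 4 libraries fall.

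By the naming rule the lower genes included E2F2, an activator of S-phase genes, at 64.5, 72.2 and 107 CPM in Ars and 34.9, 33.1 and 48.8 CPM in RK_Ars, a log2 fold change of -1.06 (SE of 0.16, adjusted p = 0.000199). Its groups did not overlap, and it had -1.07 without replicate 3 of both groups and -0.86 without Ars replicate 3. The kinase gene SBK1 was at 10.9, 12.7 and 18.4 CPM in Ars and 4.95, 4.92 and 8.19 CPM in RK_Ars and the gene ENSG00000277758 at 24.2, 27.5 and 42.5 CPM in Ars and 10.95, 9.77 and 14.2 CPM in RK_Ars, with log2 fold changes of -1.2 (SE of 0.20, adjusted p = 0.000508) and -1.42 (SE of 0.19, adjusted p = 6.4e-05). These 2 genes alone of the 16 named lower genes kept both thresholds without Ars replicate 3, at -1.01 and -1.2, and SBK1 lost the call with the GC trend removed, at -0.83. PRR12 had -1.06 (adjusted p = 0.00038), -0.81 without Ars replicate 3 and -0.60 with the GC trend removed.

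The remaining lower genes named by the rule, PAQR4, ARID3A, ZNF865, FGFRL1, PANX2 and WNK2, had log2 fold changes from -1.18 to -1.02, from -0.90 to -0.74 without replicate 3 of both groups, from -0.81 to -0.64 without Ars replicate 3 and from -0.82 to -0.46 with the GC trend removed, none keeping its call in these settings. For FGFRL1, a decoy receptor of fibroblast growth factors, the values were 91.8, 99.9 and 209.9 CPM in Ars and 63.2, 55.8 and 69.2 CPM in RK_Ars. Of 413 tested genes named ZNF, 5 were lower (ZNF865, ZNF358, ZNF219, ZNF517 and ZNF101) and 0 higher, with a median of 0.02, and ZNF219 had -1.04 (adjusted p = 0.0259), which was -0.29 without Ars replicate 3. Without that library the 5 had log2 fold changes from -0.64 to -0.26. Of the 43 named higher genes, 35 stayed called without that library, 36 without replicate 3 of both groups and 35 with the GC trend removed, and none changed direction under any alternative run. Those lost without both were DUSP10, H4C14, H4C4, HSP90AA1, MALAT1, MIR22HG and STC2. Those lost with the GC trend removed were CLK1, CRYAB, DNAJB4, DUSP10, GAS5, HSP90AA1, MALAT1 and STC2.

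Across all genes, short transcripts were called more often in both directions and noncoding ones were more often higher. Of the quintile of genes with the shortest exon length (54 to 2253 bases) 255 were higher (7.22%) and 53 lower (1.5%), against 69 (1.95%) and 4 (0.113%) of the quintile with the longest, and the medians of the log2 fold change were 0.07 and 0.08. By the type of the longest annotated transcript, 239 of 2740 lncRNA genes (8.72%) and 49 of 455 processed pseudogenes (10.8%) were higher, against 131 of 10595 protein-coding genes (1.24%). Reads of pseudogenes can be shared with their parent genes, so these values are uncertain. Genes that were enriched in the insoluble over the soluble fraction of Ctrl cells were higher in 176 of 2083 cases (8.45%) with a median log2 fold change of 0.29, and soluble-enriched genes in 55 of 1890 (2.91%) with a median of -0.01.

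Many of the differences were found in both fractions. Of the 550 genes higher in the insoluble fraction, 224 were also higher in the soluble fraction (40.7%), which is 52.7% of the 425 called there, and the median soluble log2 fold change of the 550 was 1.11. Of the 144 lower genes 1 was also lower in the soluble fraction, where 0.0283% of all genes were. The fractions come from the same lysates. HSPA6 had soluble levels of 4.48 ± 0.63 CPM in Ars and 220.1 ± 23.6 CPM in RK_Ars (SD, n = 3 each), and its soluble log2 fold change was 5.61 (adjusted p = 3.24e-11), and the difference between fractions was -1.24 (SE of 0.38, adjusted p = 0.154), short of the threshold. For DNAJA4 and HSPE1 the soluble values were 2.86 (adjusted p = 4.19e-11) and 0.59 (adjusted p = 0.00546), with differences of 0.75 (SE of 0.21, adjusted p = 0.119) and 0.88 (SE of 0.19, adjusted p = 0.0347), of which HSPE1 passed on p but not on fold.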

How the data were processed

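Cytoplasmic fractions of U2OS cells were sequenced as rRNA-depleted paired-end libraries, and the 6 insoluble libraries of Ars and RK_Ars were compared. The authors aligned reads with STAR 2.7.2b (GRCh38.p13, GENCODE release 40), converted them with SAMtools 1.2 and counted uniquely mapped fragments with featureCounts of Subread, so the deposited values are raw counts per gene, in 1 table for exons (60308 genes) and 1 for introns (37473 genes, intron regions being genic minus exonic sequence). The library kit was directional but the counts do not separate strands. Entries broken over several lines were rejoined for 1 exon and 21 intron genes, and 37 mitochondrial genes were at 0 in every library. Spike-in counts were not used here. No column belonged to another series (0 columns).

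From the deposited counts, genes averaging 1 CPM or more over 24 libraries were kept (17666 exon and 17406 intron genes) and fitted in 8 groups with edgeR 4.0.16 (R 4.3.3, limma 3.58.1, TMM factors, glmQLFit and glmQLFTest, two-sided). Calls needed both a p under 0.05 after Benjamini-Hochberg adjustment and a log2 fold change of 1 or more in size, and SEs are the absolute log2 fold change divided by the square root of F. Named were the 10 genes with the smallest adjusted p in each direction (5 for introns) among called genes averaging 10 CPM or more with groups that do not overlap, called members of the lists, genes named by the study and 7SL and 7SK RNAs. The lists and the comparison were chosen with earlier results of these data known, and no set test was made. Libraries with the same replicate number deviated together from their group means (r = 0.682, 0.682 and 0.826 for pairs 1, 2 and 3 over 9933 genes), which is the source of the pairing, as the labels give only numbers. Ars 1 with RK_Ars 2 gave 0.826 and Ars 2 with RK_Ars 1 gave 0.527, so the check sets replicate 3 apart and does not tell pairs 1 and 2 from each other. Libraries of 13345445 to 19799530 fragments limit precision at low levels. Alternatives were RLE factors, library size alone, glmLRT, DESeq2 1.42.0, other filters, a replicate block, the compared groups alone, each library left out, exon plus intron counts and no 7SL RNAs. Removal of each library's GC trend was added after seeing the data. Scripts were tested on simulated data. Promoter windows came from RefSeq (GRCh38.p14).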

Additional observations from a re-analysis of the deposited data

Results flagged for a closer look

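For 6 genes named above, the change of RK_Ars over Ars differed between the insoluble and the soluble fraction by the interaction test of edgeR. With the lysate as a block 4 of the 6 kept the call (EGR1, ZFP36, ZFP36L1 and WDR61), and in a fit of the 4 compared groups alone 0 did, at adjusted p of 0.0556 to 0.151. The difference in log2 fold change, insoluble minus soluble, was -1.55 for EGR1, -1.4 for ZFP36, -1.25 for ZFP36L2, -1.22 for BTG2 and -1.02 for ZFP36L1, and 1.25 for WDR61, the 1 of these whose change was larger in the insoluble fraction. The soluble values behind them were 323, 300.3 and 309.7 CPM in Ars and 1069, 1193 and 1234 CPM in RK_Ars for EGR1, and 30.9, 34.8 and 30.6 CPM and 115, 135 and 135 CPM for ZFP36. In both genes every RK_Ars library of the soluble fraction lay above every Ars library. ZFP36L1 in the soluble fraction was at 402, 378 and 400.1 CPM in Ars and 427, 450.1 and 383 CPM in RK_Ars, where the groups overlapped. The 5 immediate early genes were singled out after their values were seen.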

How the results depend on the processing

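The cause of the changes listed here was not tested unless stated. In exons, against 694 called genes (550 higher, 144 lower), no low-count filter gave 1130 (831 and 299), a mean of at least 10 CPM 170 (109 and 61), no fold limit 2435 (1216 and 1219), a log2 limit of 2 gave 89 (85 and 4) and exon plus intron counts 1099, of which 307 were lower. The compared groups alone gave 19 (19 and 0), where 1865 genes had an unadjusted p under 0.05 by edgeR and fewer residual degrees of freedom remained. The spread there came from the compared libraries only, without the other groups. Lower genes numbered 79 with library size alone, 262 with DESeq2, which left 548 higher, and 57 without replicate 3 of both groups. Leaving out 1 library gave 341 to 1689 genes (294 to 840 higher, 35 to 849 lower). In introns, against 1789 (1103 and 686), the counts were 1036 (624 and 412) at 10 CPM, 682 (588 and 94) with the compared groups alone, 4633 (2282 and 2351) with no fold limit, 212 (186 and 26) at a log2 limit of 2, and 1397 to 2560 (959 to 1330 higher, 340 to 1230 lower) with 1 library left out. The difference between fractions moved most. Against 25 genes (6 and 19), library size alone gave 46 (40 lower), RLE factors 30 lower, glmLRT 75 (32 and 43), DESeq2 73 (19 and 54), no filter 218 (20 and 198), 10 CPM 48 (41 lower), no fold limit 63 (24 and 39), a log2 limit of 2 gave 1 (0 and 1), removal of the GC trend 11 higher, and leaving out replicate 3 of both groups 154 (46 and 108). The 4 compared groups alone gave 0, 0 and 0, with 1339 genes at an unadjusted p under 0.05 by edgeR, and 1 library left out gave 9 to 419 (2 to 42 higher, 7 to 377 lower).

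With the replicate number as a block, exon calls were 697 and intron calls 1760, and the difference between fractions gave 6 (2 and 4) with the lysate as block. Of the exon changes of named genes, the block ended the calls of ZNF101, ZNF219 and ZNF517 and no other, and of the differences between fractions those of BTG2 and ZFP36L2. Over the named genes and alternatives, 1101 values kept direction and side of the threshold, 178 kept direction only, 7 passed where they had not and 5 changed sign. These were DDX3X, at 0.063, 0.13 and 0.032 without Ars replicate 1, Ars replicate 2 and RK_Ars replicate 3 in a range of -0.42 to 0.13, G3BP1, at -0.043 with the GC trend removed, and RN7SL1, at 0.42 without Ars replicate 3 in a range of -2.22 to 0.42. None of these 3 genes was called in exons in the main fit. RN7SL1 was called lower in 7 of its 17 alternatives, and these are the 7 values that passed where they had not. All-gene medians stayed between -0.06 and 0.07 under the scalings run.

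The limits are 3 libraries a group from 1 cell line, an Ars library that differs in 7SL and GC content, levels that are shares of a library, counts without strand, and reads shared by near copies. Low-count genes near 1 CPM rest on few fragments. Differences under 2-fold were not called.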
